A study of Mesocricetus auratus with 6 samples.

Results

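Rab GTPases are small GTP-binding proteins that mark the membranes of the secretory and endocytic pathways. Their genes were taken from the deposited expression values of BHK21 cells as those whose golden hamster symbol is Rab, a number and at most 1 letter. The hamster gene table names 59 such genes, and 55 of the 16078 genes listed in every library were members by this rule. Rab25, Rab3b, Rab9a and Rab9b had no matching row among the listed genes, so they were not analysed here and enter no count or share. BHK21 is a continuous cell line from baby hamster kidney, labelled with the tissue kidney and an age of 1 day. The 6 RNA sequencing libraries comprised 3 from cells transfected with STYK1/NOK (STYK1/NOK 1 to 3) and 3 from cells transfected with pCMV-Myc, the empty vector (vector 1 to 3). STYK1, also known as NOK, is a kinase-like membrane protein whose gene the series title calls an oncogene. RNA was collected at 48 after transfection, without a stated unit. The labels do not name the plasmid or the species of the STYK1/NOK sequence, the share of cells that took up DNA, or whether the libraries of a group are separate cultures, so p-values here reflect only library-to-library spread, part or all of which may be technical.

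A Rab protein cycles between a GTP-bound form on a membrane and a GDP-bound form that can be drawn off into the cytosol. In the GTP form it binds effectors, such as tethers, motor adaptors and lipid kinases, that decide where a vesicle goes and with what it fuses. Guanine nucleotide exchange factors (GEFs) switch a Rab on, GTPase-activating proteins (GAPs) switch it off, Rab escort proteins present it for prenylation, and GDP dissociation inhibitors return it to its membrane. Each organelle of the pathway carries its own set of Rabs, and the members are described in that order, with the organelle assigned from general knowledge.

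Expression was given as FPKM, a level per length of transcript and scaled to the mapped fragments of the library, so levels can be set side by side between genes. The sums of FPKM over all genes were 528160 to 542638 in STYK1/NOK and 554681 to 619840 in vector libraries. Depth relative to STYK1/NOK 1, estimated as the commonest ratio between libraries of the same gene's low values, was 0.979 to 1.03. Only ratios in a bounded range around equal depth were searched, so this estimate does not establish that depths were equal. Vector 1 stood apart, with a Pearson correlation of 0.963 to 0.976 to the other 5 libraries over all tested genes, against 0.988 to 0.993 among those 5. The hamster Styk1 gene itself was listed at 2.04, 2.46 and 2.41 FPKM in STYK1/NOK libraries, against 1.5, 1.8 and 1.89 FPKM in vector libraries. These values do not establish overexpression of the transfected sequence, and whether its reads count toward this row is not known. Of 7 fibroblast markers with a row, 4 averaged at least 1 FPKM, among them Vim at 3844.76, 3650.34 and 3950.31 FPKM in STYK1/NOK and 3974.59, 3914.69 and 4141.27 FPKM in vector libraries, whereas Col1a1, Col1a2 and Thy1 did not exceed 1.02 FPKM in any library. The 6 epithelial markers, which include the kidney cadherin Cdh16, summed to 0.09 to 0.49 FPKM in STYK1/NOK and 0.19 to 0.4 FPKM in vector libraries. The 4 leukocyte markers summed to 282 to 299 FPKM in STYK1/NOK and 292 to 354 FPKM in vector libraries, nearly all of it from the lysosomal gene Cd68. Csf1r was also listed in every library, at 3.56, 2.91 and 3.25 FPKM in STYK1/NOK and 3.03, 3.7 and 3.03 FPKM in vector libraries. Ptprc was at no more than 0.16 FPKM and Cd3e at no more than 0.12 FPKM. The 3 endothelial markers with a row summed to 6.73 to 9.46 FPKM in STYK1/NOK and 4.89 to 8.58 FPKM in vector libraries. Nearly all of that was Cdh5, at 7.43, 6.13 and 9.11 FPKM in STYK1/NOK and 4.45, 8.23 and 7.81 FPKM in vector libraries. In bulk RNA a change in the make-up of the cells and a change in RNA per cell cannot be told apart.

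Rab genes spanned a wide range of levels in these cells. Averaged over the 6 libraries, 7 members lay at 100 FPKM or more, 22 between 10 and 100, 13 between 1 and 10, and 13 under 1. The highest was Rab31 at 208 FPKM, an endosomal Rab of the Rab22 branch. It was followed by Rab7a at 202 FPKM, the Rab of late endosomes and lysosomes. Next came Rab5c of early endosomes at 130.1 FPKM, Rab34 at 129.8 FPKM, Rab1a at 128 FPKM, Rab10 at 113 FPKM and Rab2a at 105 FPKM. Those 7 thus cover early and late endosomes, the early secretory pathway and exocytosis. Rab5c, Rab34 and Rab1a differed from each other by less than the spread of Rab1a over the libraries, which ran from 104.55 to 141.82 FPKM.

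**Figure D1:**
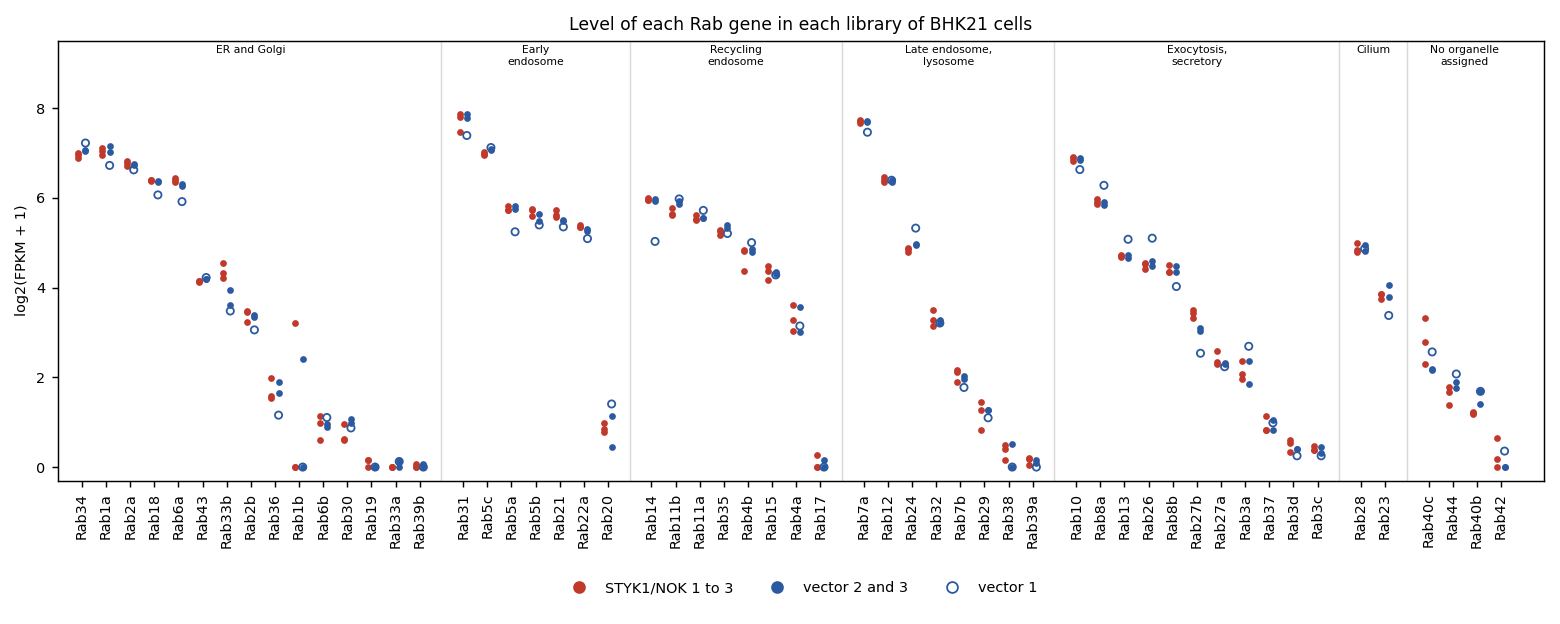
Level of the 55 Rab genes on a log2(FPKM + 1) axis, grouped by organelle and ordered by mean level, with 1 point per library (STYK1/NOK in red, vector 2 and 3 as filled and vector 1 as open blue points). Most genes lie at about the same level in all libraries, vector 1 is the point most often apart, and Rab1b is listed at 0 in 4 libraries.

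All members together summed to 2030.64, 1949.54 and 2018.3 FPKM in STYK1/NOK libraries, against 1837.95, 2017.67 and 2027.34 FPKM in vector libraries. On this scale the ranges of the groups overlapped, and vector 1 was the lowest of the 6. As a percent of the FPKM sum of all genes, which was lower in the STYK1/NOK libraries, members held 0.384%, 0.368% and 0.372% in STYK1/NOK libraries, against 0.297%, 0.364% and 0.363% in vector libraries. On that scale the groups did not overlap, so the scale decides whether the totals separate. Genes of the endoplasmic reticulum (ER) and Golgi held 28.7% of the Rab total averaged over the libraries, those of early endosomes 26.3%, late endosomes and lysosomes 16.6%, exocytosis 13.2% and recycling endosomes 12.6%. The ER and Golgi share was 28.4%, 29.2% and 29.3% in STYK1/NOK libraries, against 27.96%, 28.9% and 28.2% in vector libraries. The 10 most abundant members held 63.5%, 62.9% and 63.9% of the total in STYK1/NOK libraries, against 61.8%, 64.4% and 63.9% in vector libraries. On both of these shares the groups overlapped.

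The comparison of STYK1/NOK with vector was fitted over all 11464 genes that averaged at least 1 FPKM in a group, and 43 of the 55 Rab genes were among them. No Rab gene passed (limma-trend on log2(FPKM + 1), 0 of 43 at a Benjamini-Hochberg adjusted p under 0.05, adjusted p from 0.469 to 0.974), and 0% of all tested genes passed. At an unadjusted p under 0.05 there were 4 Rab genes (9.30%, against 9.84% of all tested genes). Of these, 2 had higher values in STYK1/NOK libraries (4.65% of 43, against 4.95% of all tested genes), and 2 had lower values (4.65%, against 4.88%). The first pair was Rab33b and Rab27b, and the second was Rab11b and Rab40b. The 3 STYK1/NOK libraries all lay above the 3 vector libraries for 6 Rab genes (13.95%, against 13.6% of all tested genes), and all below them for 6 (13.95%, against 9.44%). The first 4 of these 5 shares of Rab genes lay within 1 percentage point of the background, and none was tested against it.

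The median log2 difference of the 43 genes was 0.067, with 26 above 0 (52.7% of all tested genes were above 0, with a median of 0.014). It was -0.0023 without vector 1. The count of 4 genes at an unadjusted p under 0.05 was 2 without STYK1/NOK 1, without STYK1/NOK 2 or without vector 3, and the 2 were Rab33b and Rab27b each time. The scaling between libraries also bears on the directions. With libraries scaled to equal FPKM sums, the median difference of all tested genes was 0.12 and that of the 43 Rab genes 0.18. On that scale 7 Rab genes were higher at an unadjusted p under 0.05 (the background was 11.0%) and 0 were lower (the background was 1.90%), and 0 passed (limma-trend, smallest adjusted p 0.367). All STYK1/NOK libraries then lay above all vector libraries for 10 Rab genes (the background was 24.5%) and below them for 4, Rab11b, Rab24, Rab34 and Rab40b (the background was 3.95%). Rab20 passed the level filter through the vector group alone. Differences named from here on are on the log2(FPKM + 1) scale, STYK1/NOK minus vector, on which the change of a weakly expressed gene comes out too small.

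**Figure D2:**
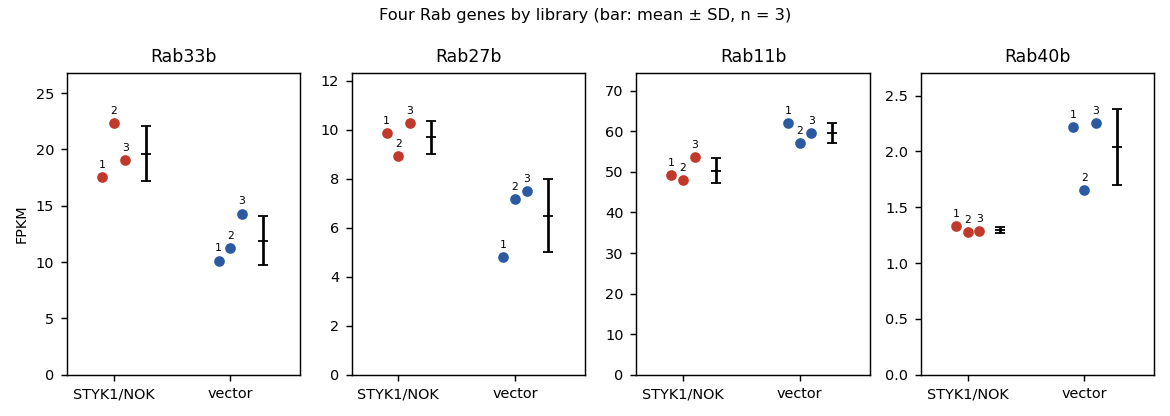
FPKM of Rab33b, Rab27b, Rab11b and Rab40b in each library, numbered by replicate, with the mean and SD of 3 libraries beside the points. In all 4 genes the STYK1/NOK points lie on the other side of a gap from the vector points, higher for Rab33b and Rab27b and lower for Rab11b and Rab40b, and none passed the adjusted test.

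Of the 15 members of the ER and Golgi, 10 were tested. Rab33b (Gene ID 101827857), a Golgi Rab that works in transport within the Golgi and binds the autophagy protein ATG16L1, measured 17.52, 22.3 and 19.08 FPKM in STYK1/NOK 1, 2 and 3, against 10.14, 11.25 and 14.31 FPKM in vector 1, 2 and 3. It averaged 19.6 ± 2.44 FPKM in STYK1/NOK and 11.9 ± 2.16 FPKM in vector libraries (SD, n = 3 each), and the lowest STYK1/NOK library, number 1, lay above the highest vector library, number 3. Its difference of 0.68 ± 0.15 (SE), with a 95% interval of 0.35 to 1.02, had an unadjusted p of 0.00146 and ranked 13 of all tested genes (limma-trend, adjusted p = 0.469). Leaving out any 1 library kept it between 0.58 and 0.81. Its paralog Rab33a, known mainly from brain and lymphocytes, was listed at 0 in all STYK1/NOK libraries and at 0.09, 0.09 and 0 FPKM in vector libraries, so nearly all Rab33 FPKM of these cells was that of Rab33b.

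Rab6a, which runs retrograde and post-Golgi carriers, measured 83.29, 81.2 and 85.26 FPKM in STYK1/NOK libraries and 59.36, 78.79 and 75.68 FPKM in vector libraries. The groups did not overlap, but the distance was mostly that of vector 1, and the difference of 0.23 ± 0.11 (SE) became 0.11 without it. Rab34, a Golgi-associated Rab that also acts in cilium formation, was the most abundant of the ER and Golgi group, at 117.75, 123.42 and 126.06 FPKM in STYK1/NOK and 148.16, 133.47 and 130.04 FPKM in vector libraries. Here all STYK1/NOK libraries lay below all vector libraries, with a difference of -0.16 ± 0.083 (SE) that was -0.11 without vector 1, -0.051 with equal FPKM sums and -0.073 with quantile normalization. Rab18, a Rab of the ER and of lipid droplets, measured 82.79, 83.45 and 81.99 FPKM in STYK1/NOK and 65.93, 81.86 and 80.93 FPKM in vector libraries. The lowest STYK1/NOK value lay barely above the highest vector value, and the difference of 0.12 ± 0.10 (SE) was 0.023 without vector 1. None of the 3 genes passed (limma-trend, adjusted p = 0.469, 0.469 and 0.562).

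The ER-to-Golgi Rabs themselves overlapped between the groups. Rab1a, which tethers vesicles arriving at the Golgi, measured 137.15, 123.78 and 130.45 FPKM in STYK1/NOK and 104.55, 141.82 and 129.78 FPKM in vector libraries. Rab2a, of the intermediate compartment between ER and Golgi, measured 107.92, 102.94 and 112 FPKM in STYK1/NOK and 97.51, 104.42 and 106.18 FPKM in vector libraries, far above its paralog Rab2b at 9.9, 10.19 and 8.45 FPKM in STYK1/NOK and 7.32, 9.45 and 9.12 FPKM in vector libraries. Rab43, another Golgi Rab, was the steadiest of this group, at 16.77, 16.43 and 16.62 FPKM in STYK1/NOK and 17.68, 17.15 and 17.3 FPKM in vector libraries. Its groups did not overlap, although all 6 values lay between 16.43 and 17.68 FPKM, and its difference took the other sign, 0.044, with equal FPKM sums. Rab36 measured 1.92, 2.98 and 1.99 FPKM in STYK1/NOK and 1.23, 2.72 and 2.16 FPKM in vector libraries, with overlapping groups. The median difference of the 10 tested genes was 0.13, and it was -0.013 without vector 1.

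Rab1b, the close paralog of Rab1a, was listed at 0, 0 and 8.32 FPKM in STYK1/NOK libraries and at 0, 0 and 4.32 FPKM in vector libraries. It is described here because of these values, which were seen before it was chosen. Rab1b is used widely by mammalian cells, and its values are given as listed, with no mean or fold. Its fitted difference still enters the counts and medians of the 43 tested genes and of the ER and Golgi group. The 95% interval of its difference, -1.90 to 2.44, was the widest of the 43. In all, 33 of the 16078 listed genes (0.205%) were at 0 in at least 1 library and at 4 FPKM or more in another, and Rab1b was the 1 Rab gene among them. The sources used here do not say how reads common to near-identical paralogs were assigned, so how values divide within such pairs is uncertain.

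**Figure D3:**
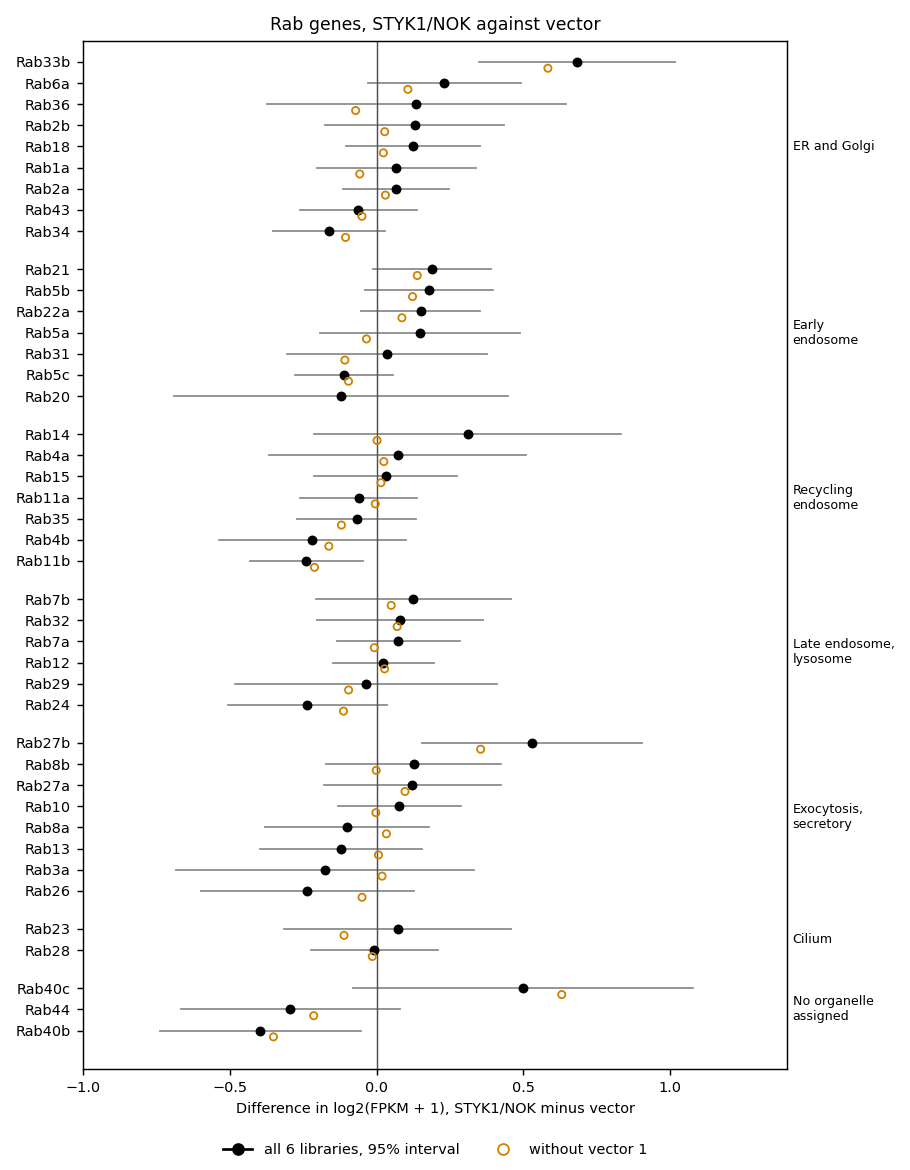
Difference in log2(FPKM + 1), STYK1/NOK minus vector, for 42 of the 43 tested Rab genes by organelle (black points with 95% intervals from all 6 libraries; open points without vector 1, absent for Rab20). Rab1b, whose interval runs from -1.90 to 2.44, is not drawn. The intervals of Rab33b, Rab27b, Rab11b and Rab40b leave out 0, and many open points lie nearer to 0 than the black ones.

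All 7 members assigned to early endosomes were tested. Rab21, which traffics integrins, measured 51.93, 48.38 and 46.57 FPKM in STYK1/NOK and 39.84, 44.61 and 44.05 FPKM in vector libraries. Its groups did not overlap, and the difference of 0.19 ± 0.088 (SE) was 0.14 without vector 1. Rab22a, of early and recycling endosomes, measured 39.8, 41.11 and 40.01 FPKM in STYK1/NOK and 33.09, 37.29 and 38.51 FPKM in vector libraries, again with no overlap and with a difference of 0.15 ± 0.089 (SE) (0.087 without vector 1). Rab31, the most abundant Rab, showed no such separation: it measured 221.43, 176.97 and 231.52 FPKM in STYK1/NOK and 166.58, 217.76 and 232.23 FPKM in vector libraries. STYK1/NOK 2 and vector 1 were its low libraries, and its difference of 0.035 ± 0.15 (SE) turned to -0.11 without vector 1.

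The 3 paralogs of Rab5, which drives the fusion of early endosomes, did not lie the same way. Rab5c measured 122.94, 124.22 and 127.94 FPKM in STYK1/NOK and 138.11, 135.4 and 131.94 FPKM in vector libraries, all of the first below all of the second, with a difference of -0.11 ± 0.073 (SE) (-0.096 without vector 1). With equal FPKM sums that difference was -0.00022, and with quantile normalization -0.018. Rab5b measured 51.89, 47.23 and 52.5 FPKM in STYK1/NOK and 41.07, 48.72 and 43.96 FPKM in vector libraries. Its groups overlapped through STYK1/NOK 2 and vector 2, and the difference was 0.18 ± 0.095 (SE). Rab5a measured 55.03, 51.88 and 51.92 FPKM in STYK1/NOK and 36.85, 53.04 and 55.43 FPKM in vector libraries, where vector 1 was low and the other 5 libraries lay together. Rab20, an inducible endosomal Rab, was near the limit of the filter at 0.72, 0.97 and 0.81 FPKM in STYK1/NOK and 1.65, 0.36 and 1.19 FPKM in vector libraries. None of the 7 passed (limma-trend, adjusted p from 0.469 to 0.920), and the median difference was 0.15, or 0.026 over 6 of the 7 without vector 1.

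Recycling endosomes send receptors back to the surface, and 7 of their 8 members were tested. Rab11b (Gene ID 101841380), which with Rab11a defines the slow recycling route, measured 49.22, 47.9 and 53.73 FPKM in STYK1/NOK libraries, against 61.91, 57.05 and 59.63 FPKM in vector libraries. All 3 STYK1/NOK libraries lay below all 3 vector libraries, with means of 50.3 ± 3.06 FPKM in STYK1/NOK and 59.5 ± 2.43 FPKM in vector libraries (SD, n = 3 each). The difference of -0.24 ± 0.084 (SE), with a 95% interval of -0.43 to -0.047, had an unadjusted p of 0.0206 and did not pass (limma-trend, adjusted p = 0.469). It lay between -0.29 and -0.21 when any 1 library was left out, so it did not rest on vector 1. When libraries were scaled to equal FPKM sums, its difference was -0.13 and Rab11b was no longer among the genes at an unadjusted p under 0.05. The same held without STYK1/NOK 1, without STYK1/NOK 2, without vector 3 and with the replicate number as a block. Rab11a measured 45.34, 47.74 and 44.16 FPKM in STYK1/NOK and 51.68, 46.12 and 45.61 FPKM in vector libraries, which overlapped.

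Rab14, which links recycling endosomes with the Golgi, held the largest deviation of vector 1 among the 42 drawn Rab genes. It measured 62.34, 60.54 and 60.61 FPKM in STYK1/NOK and 31.63, 60.29 and 61.88 FPKM in vector libraries, so that 5 libraries fell within 60.29 to 62.34 FPKM and vector 1 lay far below. Its difference was 0.31 ± 0.23 (SE) with vector 1 and 0.0018 without it. Rab4b, of the fast recycling route, measured 27.45, 19.61 and 26.99 FPKM in STYK1/NOK and 31.02, 26.73 and 28.18 FPKM in vector libraries, with STYK1/NOK 2 as the low library. Rab4a, its paralog, measured 11.24, 8.7 and 7.23 FPKM in STYK1/NOK and 7.84, 7.07 and 10.79 FPKM in vector libraries. Rab35, which acts in fast recycling and cytokinesis, measured 37.84, 35.09 and 37.62 FPKM in STYK1/NOK and 35.89, 39.45 and 40.77 FPKM in vector libraries. Rab15 measured 21.4, 17.09 and 19.74 FPKM in STYK1/NOK and 18.45, 18.87 and 19.38 FPKM in vector libraries. In all 4 of these genes the groups overlapped, and the median difference of the 7 was -0.061, or -0.0044 without vector 1 and 0.049 with equal FPKM sums.

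Among Rabs of late endosomes, lysosomes and related organelles, 6 of 8 were tested. Rab7a, which drives late endosome maturation and fusion with lysosomes, measured 212.78, 207.23 and 201.12 FPKM in STYK1/NOK and 175.22, 209.68 and 206.47 FPKM in vector libraries. Apart from vector 1 its values lay close together, and the difference of 0.075 ± 0.092 (SE) was -0.0075 without that library. Rab24, an atypical Rab of autophagosomes, measured 26.68, 28.02 and 28.37 FPKM in STYK1/NOK and 39.07, 29.73 and 30.29 FPKM in vector libraries, with all of the first below all of the second. Its difference of -0.24 ± 0.12 (SE) was -0.11 without vector 1, the highest library, and did not pass (limma-trend, adjusted p = 0.469). Rab12 was among the steadiest members, at 87.11, 83.59 and 81.12 FPKM in STYK1/NOK and 82.96, 80.77 and 83.87 FPKM in vector libraries. Rab32, of lysosome-related organelles, measured 7.9, 10.34 and 8.64 FPKM in STYK1/NOK and 8.25, 8.22 and 8.66 FPKM in vector libraries. Rab7b measured 3.31, 3.45 and 2.7 FPKM in STYK1/NOK and 2.42, 3.09 and 2.91 FPKM in vector libraries, and Rab29 stayed at or under 1.74 FPKM in every library. The groups overlapped for Rab7a, Rab12, Rab32, Rab7b and Rab29.

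The exocytic Rabs carry vesicles and secretory granules to the plasma membrane, and 8 of 11 were tested. Rab27b (Gene ID 101822849), which docks secretory granules and multivesicular endosomes for release, measured 9.87, 8.95 and 10.26 FPKM in STYK1/NOK libraries, against 4.8, 7.19 and 7.51 FPKM in vector libraries. The groups did not overlap, vector 1 was the lowest library, and the means were 9.69 ± 0.673 FPKM in STYK1/NOK and 6.50 ± 1.48 FPKM in vector libraries (SD, n = 3 each). The difference of 0.53 ± 0.16 (SE), with a 95% interval of 0.15 to 0.91, had an unadjusted p of 0.0115 and did not pass (limma-trend, adjusted p = 0.469). It ranged from 0.36 without vector 1 to 0.63 with another library left out. Its paralog Rab27a, best known from melanosomes and cytotoxic granules, measured 4.98, 3.95 and 4.06 FPKM in STYK1/NOK and 3.71, 4 and 3.93 FPKM in vector libraries, which overlapped.

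Rab10, which carries vesicles to the surface and was the most abundant of the group, measured 116.88, 118.8 and 112.06 FPKM in STYK1/NOK and 97.99, 114.46 and 117.69 FPKM in vector libraries. Its difference of 0.078 ± 0.092 (SE) was -0.0023 without vector 1. Vector 1 was the lowest library for Rab10 and an extreme one for the other 5 genes described next. Rab26, of secretory granules, measured 21.9, 22.3 and 20.26 FPKM in STYK1/NOK and 33.3, 23.27 and 21.28 FPKM in vector libraries, and its difference of -0.24 ± 0.16 (SE) was -0.050 without vector 1. Rab13, a Rab of cell junctions and migration, measured 25.13, 24.63 and 25.33 FPKM in STYK1/NOK and 32.72, 25.48 and 24.35 FPKM in vector libraries. Rab8a, which acts in polarised secretion and cilium growth, measured 56.72, 62.2 and 58.55 FPKM in STYK1/NOK and 76.59, 56.62 and 58.86 FPKM in vector libraries. For these 3 vector 1 was high, whereas for Rab8b, the paralog of Rab8a, it was low: 21.7, 19.43 and 19.46 FPKM in STYK1/NOK and 15.26, 21.23 and 19.19 FPKM in vector libraries. Rab3a, of synaptic and neuroendocrine vesicles, measured 2.89, 4.11 and 3.18 FPKM in STYK1/NOK and 5.46, 4.11 and 2.63 FPKM in vector libraries. The groups overlapped for these 6 genes, and the median difference of the 8 tested genes was -0.011, or 0.013 without vector 1.

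Both Rabs assigned to the cilium were tested and overlapped between the groups. Rab23, a negative regulator of Hedgehog signalling, measured 13.44, 13.53 and 12.39 FPKM in STYK1/NOK and 9.4, 12.87 and 15.74 FPKM in vector libraries. Rab28 measured 30.79, 26.53 and 27.6 FPKM in STYK1/NOK and 28.11, 29.86 and 27.29 FPKM in vector libraries. Their differences were 0.073 ± 0.17 (SE) and -0.0073 ± 0.094 (SE), and without vector 1 they were -0.11 and -0.014.

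Of 4 members with no organelle assigned, 3 were tested. The Rab40 proteins carry a SOCS box and serve as substrate receptors of cullin-5 ubiquitin ligases. Rab40b (Gene ID 106021134) measured 1.33, 1.28 and 1.29 FPKM in STYK1/NOK libraries, against 2.22, 1.65 and 2.25 FPKM in vector libraries. The STYK1/NOK libraries lay close together and below every vector library, with means of 1.30 ± 0.0265 FPKM in STYK1/NOK and 2.04 ± 0.338 FPKM in vector libraries (SD, n = 3 each). The difference of -0.40 ± 0.15 (SE), with a 95% interval of -0.74 to -0.054, had an unadjusted p of 0.0283 and did not pass (limma-trend, adjusted p = 0.469). Without vector 1 the difference was -0.35, with an unadjusted p of 0.0599, and with equal FPKM sums it was -0.33, with Rab40b again not among the genes at an unadjusted p under 0.05. Among the fits with 1 library left out, only that without vector 2 kept it there, and the replicate block did not. All its values were at 2.25 FPKM or less, near the filter of 1 FPKM. Rab40c measured 5.94, 9.02 and 3.91 FPKM in STYK1/NOK and 4.92, 3.5 and 3.52 FPKM in vector libraries. STYK1/NOK 2 was its high library, STYK1/NOK 3 lay within the vector range, and the difference was 0.50 ± 0.25 (SE), 0.63 without vector 1 and 0.24 without STYK1/NOK 2. Rab44, a large Rab with additional domains, measured 2.2, 2.45 and 1.62 FPKM in STYK1/NOK and 3.21, 2.73 and 2.4 FPKM in vector libraries, with a difference of -0.29 ± 0.16 (SE).

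The 12 members under the filter averaged between 0.017 and 0.945 FPKM. Rab6b, Rab37 and Rab30 came nearest to it. Rab6b, the neuronal paralog of Rab6a, was listed at 0.99, 1.19 and 0.52 FPKM in STYK1/NOK and 1.15, 0.95 and 0.87 FPKM in vector libraries. Rab37, a Rab of secretory granules, was listed at 0.77, 0.78 and 1.19 FPKM in STYK1/NOK and 0.98, 0.76 and 1.07 FPKM in vector libraries. Rab30, of the Golgi, was listed at 0.53, 0.54 and 0.94 FPKM in STYK1/NOK and 0.83, 0.96 and 1.09 FPKM in vector libraries. The other 9 were Rab3c, Rab3d, Rab17, Rab19, Rab33a, Rab38, Rab39a, Rab39b and Rab42, and none of them exceeded 0.57 FPKM in any library. They include genes known from neurons (Rab3c, Rab39b), epithelia (Rab17) and pigment cells (Rab38).

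In several subfamilies 1 paralog held most of the FPKM with a share that varied little. Rab6a held 98.1% to 99.4% of the Rab6 FPKM over the 6 libraries, Rab2a held 90.99% to 93.0% of Rab2, and Rab31 held 81.1% to 85.8% of the FPKM of Rab22a and Rab31. Rab11 was the evenly divided pair, with Rab11a at 47.9%, 49.9% and 45.1% in STYK1/NOK libraries, against 45.5%, 44.7% and 43.3% in vector libraries. Those shares overlapped. Rab5c held 53.5%, 55.6% and 55.1% of the Rab5 FPKM in STYK1/NOK libraries, against 63.9%, 57.1% and 57.0% in vector libraries, so all STYK1/NOK libraries lay lower, and closer to vector 2 and 3 than to vector 1. Rab5b held 22.6%, 21.1% and 22.6% in STYK1/NOK libraries, against 19.0%, 20.5% and 19.0% in vector libraries, all higher in STYK1/NOK. Rab27b held 66.5%, 69.4% and 71.6% of the Rab27 FPKM in STYK1/NOK libraries, against 56.4%, 64.3% and 65.6% in vector libraries. Rab40c held 81.7%, 87.6% and 75.2% of the Rab40 FPKM in STYK1/NOK libraries, against 68.9%, 68.0% and 61.0% in vector libraries. In both of these pairs the STYK1/NOK shares lay above the vector shares without overlap, with STYK1/NOK 1 and vector 3 nearly level for Rab27b. The Rab40 shares rest on Rab40b values of only 1.28 to 2.25 FPKM. Within Rab3 and Rab4 the shares overlapped between the groups. Rab8a held 72.3%, 76.2% and 75.1% of the Rab8 FPKM in STYK1/NOK libraries, against 83.4%, 72.7% and 75.4% in vector libraries, where vector 1 alone stood out. Shares were not tested, since they are drawn from the values already compared. How often paralog shares separate in other gene families was not examined.

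**Figure D4:**
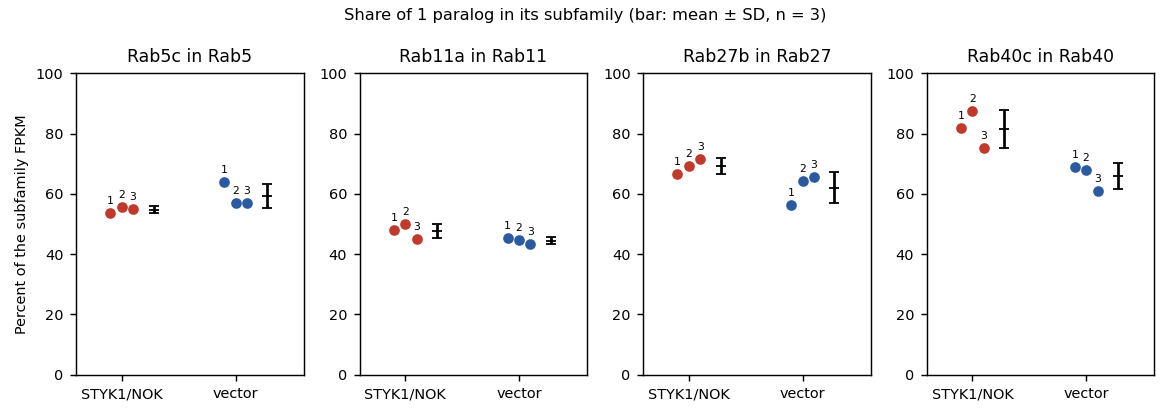
Percent of the subfamily FPKM held by Rab5c (of Rab5a, Rab5b and Rab5c), Rab11a (of Rab11a and Rab11b), Rab27b (of Rab27a and Rab27b) and Rab40c (of Rab40b and Rab40c) in each library, numbered by replicate, with mean and SD of 3 libraries. STYK1/NOK points lie below the vector points for Rab5c and above them for Rab27b and Rab40c, and overlap them for Rab11a.

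The library that varied most across the Rab genes was vector 1. Among the 43 tested Rab genes it held the lowest of the 6 values for 20 (46.5%, against 36.2% of all tested genes) and the highest for 13 (30.2%, against 37.1%). Its median distance from the mean of the other 5 libraries was 0.27 log2 units for Rab genes and 0.29 for all tested genes, whereas the other libraries lay between 0.064 and 0.14 for Rab genes. Of 42 genes tested with and without vector 1, 12 differences took the other sign without it, 13 shrank by more than 1.5 times, 3 grew by more than that and 14 moved less. The mean level of the tested Rab genes, relative to the vector mean, was 0.041, 0.040 and 0.052 log2 units in STYK1/NOK libraries, against -0.069, -0.0050 and 0.074 in vector libraries. The part of vector 1 in the differences is given by the values without it; what set it apart was not tested.

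**Figure D5:**
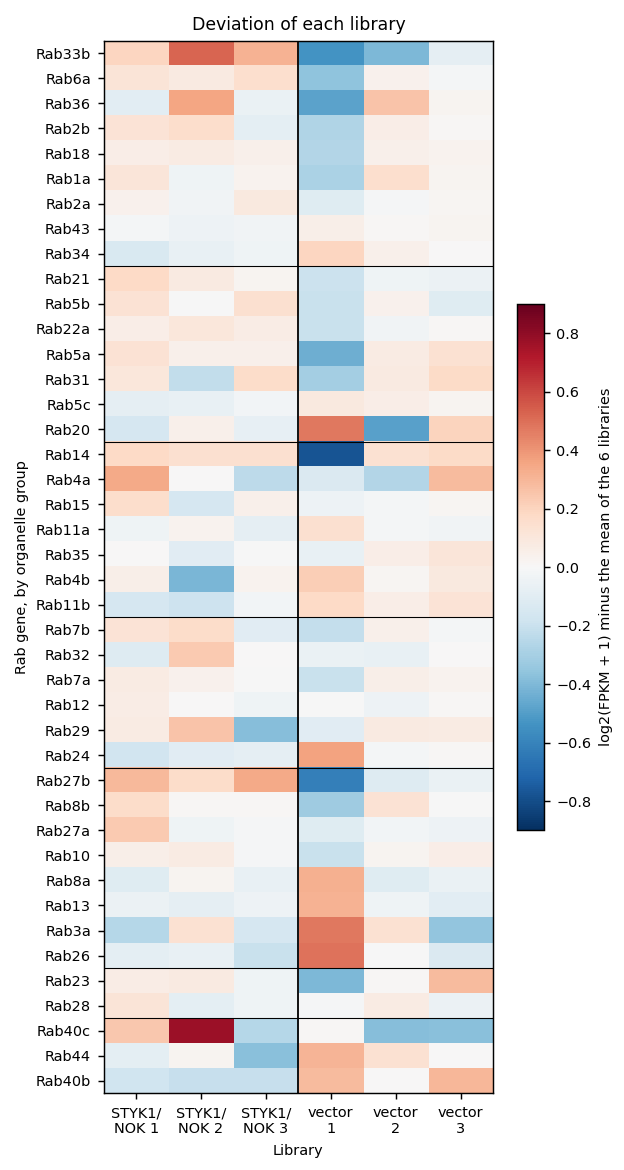
Deviation of each library from the mean of the 6 libraries in log2(FPKM + 1), for 42 tested Rab genes by organelle, with STYK1/NOK libraries left and vector libraries right of the line (red above, blue below the mean). The range is -0.77 to 0.77, its lower end is Rab14 in vector 1 and its upper end Rab40c in STYK1/NOK 2, and the vector 1 column holds most of the strong colours.

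The proteins that load, switch and read Rabs were taken from 4 lists written from general knowledge, and none of their genes passed (limma-trend, adjusted p of 0.469 or more). All 8 genes of prenylation and recycling were tested, 3 above 0 and 5 below (52.7% of all tested genes were above 0), with a median difference of -0.039. Chm, which encodes Rab escort protein 1, measured 44.62, 43.27 and 40.46 FPKM in STYK1/NOK and 24.49, 37.35 and 38.67 FPKM in vector libraries, without overlap. Its difference of 0.37 ± 0.16 (SE) was 0.17 without vector 1. Chml, the second escort protein, measured 5.62, 5.81 and 5.1 FPKM in STYK1/NOK and 1.93, 5.31 and 4.5 FPKM in vector libraries. Rabac1, a prenylated Rab acceptor of the Golgi, measured 80.68, 88.03 and 84.58 FPKM in STYK1/NOK and 129.54, 95.9 and 89.26 FPKM in vector libraries, all of the first below all of the second. Its difference of -0.29 ± 0.14 (SE) was -0.13 without vector 1.

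Of 36 listed GEFs 30 were tested, 1 with a higher and 0 with a lower value in STYK1/NOK libraries at an unadjusted p under 0.05 (the background was 4.95% higher and 4.88% lower), and 6 lay above and 1 below without overlap (the background was 13.6% above and 9.44% below). Dennd4c, an exchange factor of Rab10, measured 22.49, 25.14 and 20.51 FPKM in STYK1/NOK and 15.28, 20.08 and 19.25 FPKM in vector libraries, a difference of 0.31 ± 0.13 (SE) (0.19 without vector 1). Dennd4a, of the same family, measured 5.25, 6.29 and 5.02 FPKM in STYK1/NOK and 3.74, 4.96 and 4.48 FPKM in vector libraries. Sbf2, a myotubularin-related protein with a DENN domain, measured 20.55, 23.01 and 19.68 FPKM in STYK1/NOK and 14.37, 18.89 and 18.74 FPKM in vector libraries. In each of these 3 genes vector 1 was the lowest library. Of the 30 tested GEFs 21 lay above 0 and 9 below (52.7% of all tested genes were above 0). Their median difference was 0.073, and 0.085 without vector 1.

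Of 32 listed GAPs 28 were tested, 2 with a higher and 0 with a lower value at an unadjusted p under 0.05 (4.95% and 4.88% of all tested genes), and 6 lay above and 0 below without overlap (13.6% and 9.44% of all tested genes). Tbc1d12, a protein with the TBC domain of Rab GAPs, measured 12.98, 13.16 and 12.96 FPKM in STYK1/NOK and 9.41, 10.93 and 10.06 FPKM in vector libraries, a difference of 0.34 ± 0.10 (SE) (0.29 without vector 1). Tbc1d8b, of the same kind, measured 5.4, 5.47 and 5.9 FPKM in STYK1/NOK and 2.62, 3.72 and 4.59 FPKM in vector libraries, a difference of 0.53 ± 0.17 (SE) (0.36 without vector 1). Rabgap1, a GAP found with Rab6 at the Golgi and centrosome, measured 42.74, 43.46 and 40.35 FPKM in STYK1/NOK and 34.56, 40.03 and 38.61 FPKM in vector libraries. Of the 28 tested GAPs 18 lay above 0 and 10 below (52.7% of all tested genes were above 0). Their median difference was 0.078, and 0.054 without vector 1.

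Of 44 listed effectors 37 were tested, 4 had a higher and 0 a lower value at an unadjusted p under 0.05 (the background was 4.95% and 4.88%), and 13 lay above without overlap and 1 below (the background was 13.6% above and 9.44% below). Acap2, an effector of Rab35, measured 19.41, 22.04 and 17.18 FPKM in STYK1/NOK and 6.78, 13.99 and 15.8 FPKM in vector libraries, with vector 1 far below the rest. Its difference of 0.71 ± 0.27 (SE) was 0.37 without vector 1. Eea1, the tether that Rab5 recruits to early endosomes, measured 4.26, 5.04 and 4.07 FPKM in STYK1/NOK and 2.5, 3.52 and 3.39 FPKM in vector libraries, a difference of 0.40 ± 0.15 (SE) (0.29 without vector 1). Golga5, the golgin-84 of the Golgi rim, measured 9.19, 10.17 and 10.18 FPKM in STYK1/NOK and 8.35, 7.13 and 8.44 FPKM in vector libraries, a difference of 0.28 ± 0.12 (SE) that was 0.31 without vector 1. Of the 37 tested effectors 25 lay above 0 and 12 below (52.7% of all tested genes were above 0). Their median difference was 0.11, and 0.043 without vector 1. Counts without overlap were not repeated for the regulator lists with equal FPKM sums, where the background above was 24.5%. What the count of effectors reflects was not tested.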

How the data were processed

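For 6 libraries of BHK21 cells, 1 ug of Trizol-extracted RNA each went into the Illumina TruSeq kit, according to the labels' protocols. The authors deposited FPKM, a single column per library given to 2 decimals, per the file headers. Among tools and builds, the submitters' processing notes list Bowtie 0.12.2, mm8 and mm9 without a role, though the row IDs are hamster genes; the FPKM tool, annotation, strand use and treatment of shared reads are unknown here. NCBI Gene IDs were matched, for names only, to RefSeq's hamster gene table (BCM_Maur_2.0; 15049 of 16078 matched).

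The test was limma-trend (limma 3.58.1, R 4.3.3, robust moderation) on log2(FPKM + 1), over the 11464 genes that averaged 1 FPKM or more in a group, with Benjamini-Hochberg adjustment over all of them and a threshold of 0.05. FPKM are not counts, so no count model was fitted. Relative depth came from the commonest ratio of values between 0.8 and 6 FPKM (kernel bandwidth 0.005), a setting taken from earlier work on these data; absolute depth is not known, so no counting interval is given. Per organelle, up to 4 tested members of smallest p and the most abundant member were to be named, and up to 3 genes per list of regulators; other members were added after their values were seen. The members, organelle groups and lists were chosen with earlier results of these data known. Alternatives were 2 other pseudocounts, 2 filters, 3 scalings, library weights, the replicate number as a block, and leaving out each library. The fit was also run on simulated data with independent noise of the same size in every library. That check therefore does not cover an outlying library such as vector 1.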

Additional observations from a re-analysis of the deposited data

How the results depend on the processing

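No Rab gene passed under any of the 15 alternatives, the nearest being Rab33b with library weights (limma-trend, adjusted p = 0.0548). Over all genes, the count past the threshold was 24 with library weights, which gave vector 1 a weight of 0.129, and 0 to 2 with 1 library left out. The 4 Rab genes at an unadjusted p under 0.05 became 7 with equal FPKM sums (7 higher, 0 lower), 8 with library weights and 2 to 5 with 1 library left out. The median difference over all tested Rab genes was 0.18 with equal sums, which moved the median of all genes to 0.12, 0.012 with library weights, and -0.0023 to 0.099 with 1 library left out. Same-numbered libraries did not deviate alike: their deviations correlated at -0.27, -0.16 and 0.11, and those of differently numbered libraries at -0.28 to 0.28. With 3 libraries per group these values cannot exclude a pairing. With the replicate block, 2 Rab genes (Rab33b and Rab27b) and 831 of all genes were at an unadjusted p under 0.05.

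Signs were followed for all 43 tested Rab genes and for 12 regulators, which were picked for the smallest unadjusted p in their lists. That choice favours regulators of steady sign, so the counts do not compare regulators with Rab genes. Of these genes, 33 kept their sign under every alternative that tested them and 22, all Rab genes, did not. Without vector 1 the sign turned for 12, with these ranges when any 1 library was left out: Rab10 -0.0023 to 0.13, Rab13 -0.20 to 0.0066, Rab1a -0.057 to 0.16, Rab1b -0.80 to 1.07, Rab23 -0.11 to 0.23, Rab31 -0.11 to 0.15, Rab36 -0.071 to 0.30, Rab3a -0.40 to 0.019, Rab5a -0.034 to 0.25, Rab7a -0.0075 to 0.12, Rab8a -0.18 to 0.034 and Rab8b -0.0010 to 0.22. Another library turned Rab12 (-0.0031 to 0.048), Rab15 (-0.039 to 0.12), Rab28 (-0.067 to 0.036), Rab29 (-0.17 to 0.15), Rab32 (-0.017 to 0.16) and Rab4a (-0.079 to 0.23). With library weights, Rab1a was at -0.033, Rab8a at 0.0017, Rab20 at 0.14, Rab23 at -0.041, Rab28 at 0.017, Rab31 at -0.020 and Rab36 at -0.19. With equal sums, Rab8a was at 0.010, Rab11a at 0.049, Rab28 at 0.10, Rab29 at 0.025, Rab35 at 0.041 and Rab43 at 0.044. With median centring, Rab12 was at -0.0047. The cause was not tested. Absolute depth is unknown, so the number of reads behind values under 1 FPKM is not known, and no member was called present or absent there. Of the members under the filter, Rab6b, Rab37, Rab30, Rab3c and Rab3d were listed above 0 in every library.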
